A study of Rattus norvegicus with 9 samples.

Results

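Genes for axon guidance ligands and their receptors were examined in dorsal root ganglia (DRGs), the clusters of sensory neuron cell bodies beside the spinal cord. Members were chosen by symbol. A gene was taken when its symbol began with Sema, Plxn, Epha, Ephb, Efna, Efnb, Slit, Robo or Unc5, or was Nrp1, Nrp2, Dcc, Ntn1, Ntn3 or Ntn4, with the Slitrk genes left out. This gave 70 of the 20413 genes listed, and 69 of them had a mean of at least 0.1 FPKM over the 9 libraries, the minimum that 17187 genes passed in all. FPKM scales the fragments of a gene to the length of its transcript and to the mapped fragments of the library, so levels of different genes are compared per length. The member just below the minimum was Unc5cl, at a mean of 0.0611 FPKM, and the member just above it was Epha1, at 0.15 FPKM. The 69 genes were 20 semaphorins, 11 plexins and neuropilins, 8 ephrins, 14 Eph receptors, 3 Slits, 4 Robos, 3 netrins, 5 netrin receptors and Unc50. Unc50 shares only the letters of its symbol with the Unc5 receptors and is no guidance receptor, so 34 ligands and 34 receptors remained. All 69 genes are counted below because the rule took them.

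The libraries came from Sprague Dawley rats, from the right L4-6 DRGs on the side of the treated hind paw, taken on day 10. Sham rats, labelled Con, were anaesthetised and wore a cut O-ring that left the blood flow open. CPIP (chronic post-ischemia pain) rats had an O-ring that stopped the blood flow of the hind paw and was then removed, and CPIP+EA rats had the same injury and electroacupuncture once a day for 10 days at the ST36 and BL60 points of both sides. Each group had 3 libraries, 1 for each rat. Anaesthesia was shared by the 3 groups, and every CPIP+EA rat also had the CPIP injury. The paper describes loose immobilisation for electroacupuncture and no group with that handling alone, so stimulation and handling cannot be told apart.

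Semaphorins are secreted or membrane-bound cues that mostly repel growing axons and act through plexins, to which the class 3 members bind together with neuropilins. Ephrins are tethered to the cell surface and act through Eph receptor tyrosine kinases at cell contacts, Slits act through Robos, and netrins through Dcc and the Unc5 receptors. Adult sensory neurons, their glia and the connective tissue of the ganglion keep expressing many of these genes, and several are known to respond to nerve injury.

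Values of log2(FPKM + 0.5) were compared with limma, with the 9 libraries in 1 fit and p-values adjusted over the 17187 genes by the Benjamini-Hochberg method. A gene passed the threshold at an adjusted p under 0.01 and a change of at least 1.5-fold. The 3 comparisons share libraries, so their results are set side by side and are not independent of each other. The 9 libraries resembled each other across genes, with Pearson correlations of log2 values from 0.977 to 0.99 between pairs. Sensory neuron markers were abundant throughout, with a sum over 10 genes from 9824 to 12329 FPKM, and no marker gene of this list passed the threshold. A list of 8 axon injury genes held the transcription factor Atf3 and the neuropeptide Npy. It was chosen with earlier results of these data known, so its counts are no independent check. In CPIP against Sham 8 of 8 passed the threshold (beside 0.355% of all genes), as did 8 of 8 in CPIP+EA against Sham (beside 0.483%). In CPIP+EA against CPIP 0 of 8 passed (beside 0%). Libraries of a whole ganglion hold many cell types, and fewer cells of a type cannot be told apart from less RNA per cell.

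Among the guidance genes, Sema6a alone passed the threshold. It was higher in CPIP and in CPIP+EA than in Sham. In CPIP against Sham, 1 of the 69 members passed, beside 0.355% of all genes tested. Between CPIP+EA and CPIP, 0 members passed, beside 0% of all genes. In that comparison 8 of the 69 members were at an unadjusted p under 0.05 in limma's fit, beside 4.29% of all genes (738). In CPIP+EA against Sham, 1 member passed, beside 0.483% of all genes.

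Because Sema6a, Sema3c and Sema4f were the 3 members with the smallest p-values in CPIP against Sham, the 250 bases before the annotated start of each are shown. They come from RefSeq on the rat build GRCr8, and all 3 are read from the minus strand. Capitals mark a CCAAT box, searched as CCAAT on both strands, and appear as ATTGG where it lies on the other strand.
Sema6a, chr18:42358541-42358790: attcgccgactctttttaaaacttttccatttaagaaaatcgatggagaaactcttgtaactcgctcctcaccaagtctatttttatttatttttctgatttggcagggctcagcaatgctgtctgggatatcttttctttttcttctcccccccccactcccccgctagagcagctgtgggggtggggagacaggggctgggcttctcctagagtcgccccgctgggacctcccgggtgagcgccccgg
Sema3c, chr4:18699628-18699877: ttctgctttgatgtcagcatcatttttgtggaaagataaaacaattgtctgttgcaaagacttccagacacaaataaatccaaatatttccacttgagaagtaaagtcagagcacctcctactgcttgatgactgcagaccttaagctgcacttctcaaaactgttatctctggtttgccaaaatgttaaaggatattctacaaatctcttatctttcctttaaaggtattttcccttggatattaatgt
Sema4f, chr4:116995443-116995692: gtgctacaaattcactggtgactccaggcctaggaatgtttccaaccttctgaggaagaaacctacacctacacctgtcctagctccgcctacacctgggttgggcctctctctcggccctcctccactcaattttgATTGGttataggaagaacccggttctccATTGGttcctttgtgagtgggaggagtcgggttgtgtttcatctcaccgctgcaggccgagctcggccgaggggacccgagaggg
The Sema4f stretch held 2 CCAAT boxes, and those of Sema6a and Sema3c held none. Their GC content was 52.0% for Sema6a, 35.2% for Sema3c and 55.6% for Sema4f. RefSeq entries were found for 53 of the 69 members, and 18 of these 53 held a CCAAT box (34.0%), beside 34.0% of 33469 rat promoters of this length. The GC box GGGCGG, searched on both strands, was found in 30 of the 53 (56.6%), beside 30.5% of all promoters. The letters TGANTCA, bound by Jun and its partners, occurred in 1 of the 53, beside 6.34% of all promoters. The cAMP response element TGACGTCA also occurred in 1 of the 53, beside 1.59%, and TATAAA in 0 of 53, beside 12.9%. These are matches of letters and not measured binding sites.

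Levels of the members spanned a wide range in these ganglia. A mean of at least 10 FPKM was found for 28 members, of at least 1 and under 10 FPKM for 32, and under 1 FPKM for 9. None of the 69 was at 0 in any library.

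**Figure D1:**
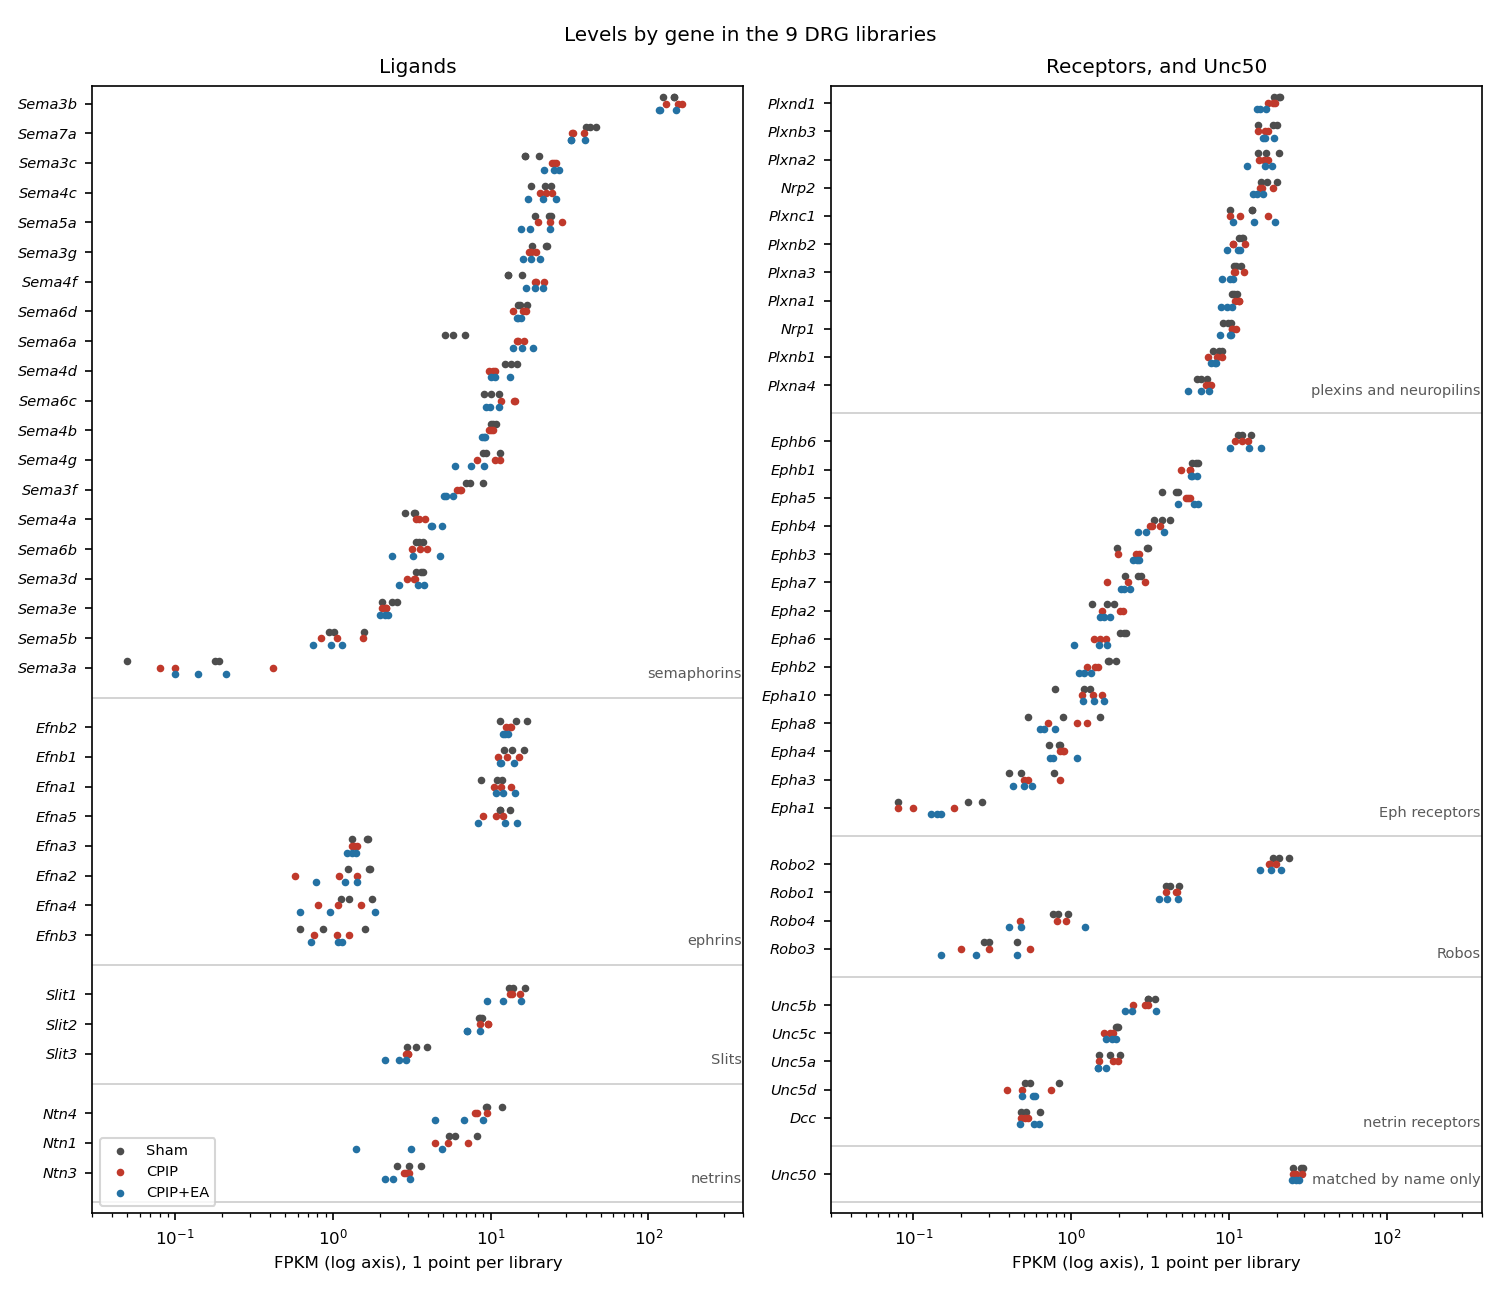
FPKM of each member, on a log axis, with the ligands and the receptors (beside Unc50) in separate panels. Each point is 1 of the 9 libraries, and Sema3b stood above the other members, from 117.26 to 162.73 FPKM.

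The semaphorins held the most abundant member, Sema3b, a secreted class 3 cue. Its FPKM was 124.5, 145.34 and 145.91 in Sham, 162.73, 154.29 and 129.11 in the CPIP and 118.97, 117.26 and 148.67 in the CPIP+EA libraries, and the 3 groups overlapped. Sema3b made up between 34.5 and 39.8% of the summed FPKM of the 20 semaphorins. Next came Sema7a, a membrane-anchored semaphorin that binds plexin C1 and integrins, at a mean of 37.7 FPKM over the 9 libraries, and Sema3c at 22.6 FPKM. Sema3a, the best studied repellent of sensory axons, was close to the minimum, between 0.05 and 0.42 FPKM.

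Sema6a encodes a transmembrane semaphorin that signals through plexins A2 and A4. Its FPKM was 6.87, 5.82 and 5.12 in the 3 Sham libraries, 14.9, 14.73 and 16.18 in CPIP, compared with 18.56, 15.73 and 13.86 in CPIP+EA. Every library of an injured rat was above every Sham library, and the CPIP and CPIP+EA libraries overlapped. The means were 5.94 ± 0.88 (SD, n = 3) in Sham, 15.3 ± 0.79 (SD, n = 3) in CPIP and 16.1 ± 2.37 (SD, n = 3) in CPIP+EA. Sema6a rose 2.46-fold in CPIP against Sham, by 1.30 on the log2 scale (SE 0.12, adjusted p = 0.00150 in limma's fit). In CPIP+EA it was 2.57-fold above Sham, with a log2 fold change of 1.36 (SE 0.12, adjusted p = 0.00102), while CPIP+EA and CPIP differed by a log2 fold change of 0.06 (SE 0.12, adjusted p = 0.996). The call in CPIP against Sham was lost without Sham replicate 2 (adjusted p = 0.0117, log2 fold change 1.29) or without CPIP replicate 3 (adjusted p = 0.0122, log2 fold change 1.26). Over all alternatives its adjusted p ran from 0.000996 to 0.0122 in that comparison. In CPIP+EA against Sham it ran from 0.000617 to 0.0106, and the call was lost when the fit held only the 2 groups compared.

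Sema3c and Sema4f were also higher in CPIP than in Sham, by smaller margins and without passing the threshold. Sema3c, a secreted class 3 semaphorin, was at 20.38, 16.56 and 16.45 FPKM in Sham, 24.36, 25.24 and 26.14 in the CPIP group, and 27.14, 21.76 and 25.21 in CPIP+EA. The Sham libraries of Sema3c did not overlap with those of either injured group, and its log2 fold change was 0.50 in CPIP against Sham (SE 0.10, adjusted p = 0.0787) and 0.46 in CPIP+EA against Sham (adjusted p = 0.0754). Sema4f, a transmembrane semaphorin, was at 15.89, 12.86 and 12.93 FPKM in Sham, 19.43, 19.25 and 21.72 in the CPIP and 21.34, 19.15 and 16.85 in the CPIP+EA libraries. Its groups were separated in the same way, with a log2 fold change of 0.52 in CPIP against Sham (SE 0.11, adjusted p = 0.0833) and 0.45 in CPIP+EA against Sham (adjusted p = 0.108).

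Sema4a, a transmembrane semaphorin also known from immune cells, differed most in CPIP+EA. Its FPKM was 2.86, 3.31 and 3.29 in Sham, 3.53, 3.39 and 3.82 in CPIP, compared with 4.2, 4.27 and 4.94 in CPIP+EA, so that no pair of groups overlapped. The log2 fold change was 0.28 in CPIP+EA against CPIP (adjusted p = 0.996), 0.44 in CPIP+EA against Sham (adjusted p = 0.0859) and 0.16 in CPIP against Sham (adjusted p = 0.785). Neutrophil markers, 5 genes with S100a9 among them, were highest in CPIP+EA replicate 3, the library with the highest Sema4a, at a sum of 529 FPKM beside 27.3 to 212 FPKM in the other libraries. The libraries stood in the same order for this sum and for Sema4a within Sham and within CPIP+EA, and in the opposite order within CPIP. In CPIP+EA replicate 1 the sum was 57.2 FPKM and Sema4a was above every Sham and CPIP library. The part of the neutrophil content in the Sema4a values was not tested. Sema6c, the transmembrane relative of Sema6a, was highest in CPIP, at 9.99, 9.06 and 11.33 FPKM in Sham, 14.32, 14.08 and 11.67 in the CPIP group, and 9.34, 9.92 and 11.29 in CPIP+EA. The lowest CPIP library of Sema6c lay just above the highest Sham library and the highest CPIP+EA library. Its log2 fold change was 0.38 in CPIP against Sham (adjusted p = 0.278) and -0.37 in CPIP+EA against CPIP (adjusted p = 0.996).

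Another group of semaphorins was at lower levels after the injury, again without passing the threshold. Sema3f, a secreted ligand of neuropilin 2, was at 8.96, 7.38 and 7 FPKM in Sham, 6.17, 6.49 and 6.36 in the CPIP and 5.8, 5.1 and 5.2 in the CPIP+EA libraries. The Sema3f libraries were ordered Sham, CPIP, CPIP+EA with no overlap between groups, with a log2 fold change of -0.27 in CPIP against Sham (adjusted p = 0.467, and -0.17 without Sham replicate 1), -0.22 in CPIP+EA against CPIP (adjusted p = 0.996) and -0.49 in CPIP+EA against Sham (adjusted p = 0.0579). Sema7a was at 46.85, 42.92 and 40.16 FPKM in Sham, 39.06, 33.36 and 32.66 in CPIP, compared with 32.13, 32.51 and 39.87 in CPIP+EA. All its injured libraries were below the Sham libraries, by a log2 fold change of -0.30 in CPIP (adjusted p = 0.399) and -0.31 in CPIP+EA (adjusted p = 0.256). Sema4d, a transmembrane ligand of plexin B1, was at 14.75, 13.45 and 12.35 FPKM in Sham, 10.31, 10.62 and 9.84 in the CPIP group, and 13.25, 10.6 and 10 in CPIP+EA. CPIP did not overlap with Sham (log2 fold change -0.38, adjusted p = 0.256), and CPIP+EA did (log2 fold change -0.26, adjusted p = 0.386).

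Sema4b and Sema4g, both transmembrane, were lower in CPIP+EA. Sema4b was at 10.33, 10.06 and 10.88 FPKM in Sham, 10.34, 9.75 and 10.12 in the CPIP and 9.16, 8.87 and 9.05 in the CPIP+EA libraries, with the CPIP+EA libraries below the others. Its log2 fold change was -0.15 against CPIP (adjusted p = 0.996) and -0.20 against Sham (adjusted p = 0.236). Sema4g was at 8.99, 9.29 and 11.54 FPKM in Sham, 11.44, 10.72 and 8.25 in CPIP, compared with 5.93, 7.5 and 9.09 in CPIP+EA, and its groups overlapped. Its log2 fold change was -0.42 in CPIP+EA against CPIP (adjusted p = 0.996) and -0.39 against Sham (adjusted p = 0.400), and without CPIP+EA replicate 1 these were -0.27 and -0.25.

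Markers of myelinating Schwann cells, the glia that sheathe the axons, varied between libraries of the same group. Over 5 markers their sum was 3359, 4363 and 5375 FPKM in Sham, 5507, 5183 and 3333 in the CPIP group, and 2335, 3389 and 4794 in CPIP+EA. The libraries of Sema4g stood in the same order as this sum within the CPIP+EA group, within the CPIP group and within Sham. Those of Sema4c and Sema5a did so as well. The libraries of Sema4b followed this order in none of the groups, and those of Sema6a stood in the opposite order within Sham and within CPIP+EA. All 5 markers had a negative log2 fold change of CPIP+EA against CPIP and against Sham, with medians of -0.44 and -0.44, and 1 and 0 at an unadjusted p under 0.05. The part of the Schwann cell content in the semaphorin values was not tested.

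**Figure D2:**
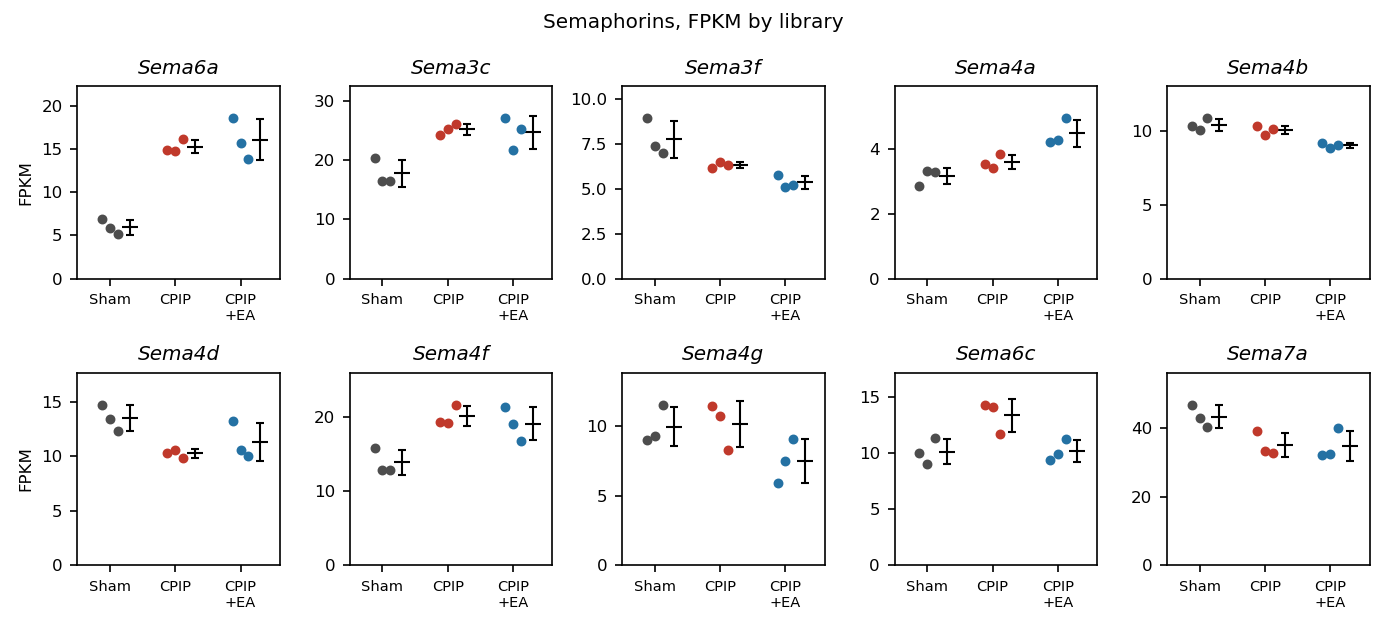
FPKM by group of the 10 semaphorins with an unadjusted p under 0.05 in any comparison, each in its own panel. Points are libraries and bars are the mean ± SD of 3 libraries, and the Sema6a Sham libraries sit between 5.12 and 6.87 FPKM, below all 6 libraries of injured rats.

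Of the 11 plexins and neuropilins, the receptors of the semaphorins, 0 had an unadjusted p under 0.05 in CPIP against Sham, beside 8.66% of all genes, which for 11 genes is not set apart from that share. They had log2 fold changes from -0.13 to 0.13. The most abundant members were Plxnd1 with a mean of 18.3 FPKM, Plxnb3 with 17.4 FPKM and Plxna2 with 16.8 FPKM, followed by Nrp2 with 16.6 FPKM. The level of Plxnb3 ranged from 15.22 to 20.05 FPKM and that of Plxna2, a receptor of Sema6a, from 13.01 to 20.61 FPKM, with overlapping groups. Plxna4, the other Sema6a receptor, ranged from 5.47 to 7.67 FPKM.

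Plxnd1 and Plxna1 were lower in CPIP+EA. Plxnd1, a receptor for class 3 semaphorins known mainly from blood vessels, was at 21.15, 19.2 and 20.83 FPKM in Sham, 17.67, 19.46 and 18.89 in CPIP, compared with 17.05, 15.1 and 15.75 in CPIP+EA. Its CPIP+EA libraries were below all others, with a log2 fold change of -0.22 against CPIP (adjusted p = 0.996) and -0.34 against Sham (SE 0.07, adjusted p = 0.0556). The summed level of 7 endothelial markers was 71.6 ± 14.9 FPKM (SD, n = 3) in Sham, 74.5 ± 4.93 (SD, n = 3) in CPIP and 74.0 ± 15.6 (SD, n = 3) in CPIP+EA. By log2 fold change, 5 of these markers were negative and 2 positive in CPIP+EA against CPIP. Against Sham, 3 were negative and 4 positive. The part of the vessel content in the Plxnd1 values was not tested. Plxna1, a signaling partner of the neuropilins, was at 11.2, 10.5 and 10.78 FPKM in Sham, 11.63, 10.93 and 11.49 in the CPIP group, and 10.46, 8.84 and 9.71 in CPIP+EA. The CPIP+EA libraries of Plxna1 were again the lowest, with a log2 fold change of -0.22 against CPIP (adjusted p = 0.996) and -0.16 against Sham (adjusted p = 0.445). In CPIP+EA against Sham, 10 of the 11 plexins and neuropilins had a negative log2 fold change, as did 54 of all 69 members, and their median was -0.12, beside -0.12 over the members and 0.00 over all genes.

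The 8 ephrins, 5 of the A type with a lipid anchor and 3 of the B type with a transmembrane segment, had 0 members at an unadjusted p under 0.05 in any of the 3 comparisons, beside 8.66% of all genes in CPIP against Sham, 4.29% in CPIP+EA against CPIP and 12.2% in CPIP+EA against Sham. Efnb2 was the most abundant with a mean of 13.3 FPKM and a range from 11.41 to 17.01 FPKM. Efnb1 followed at 13.1 FPKM, ranging from 11.13 to 16.18 FPKM, and Efna1 at 11.6 FPKM, ranging from 8.69 to 14.21 FPKM. The most negative log2 fold change of a member in CPIP against Sham was that of Efna2, at -0.46, with FPKM of 1.72, 1.25 and 1.7 in Sham, and 0.58, 1.1 and 1.42 in CPIP, which overlapped. Over the 3 comparisons, the smallest adjusted p of an ephrin was 0.572 in limma's fit.

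The 14 Eph receptors summed to between 38.28 and 43.12 FPKM in a library, and the 8 ephrins to between 47.58 and 63.65 FPKM. Ephb6, an Eph receptor that lacks kinase activity, was the most abundant at a mean of 12.5 FPKM and between 10.19 and 15.85 FPKM. Ephb1 followed with 5.82 FPKM, at 6.19, 5.78 and 6.36 in Sham, 4.97, 5.67 and 5.63 in the CPIP and 6.25, 5.79 and 5.71 in the CPIP+EA libraries. Its CPIP libraries were below those of both other groups, with a log2 fold change of -0.16 against Sham (adjusted p = 0.698) and of 0.12 in CPIP+EA against CPIP (adjusted p = 0.996). Of the 14 Eph receptors, 3 had an unadjusted p under 0.05 in CPIP against Sham, 1 of them higher (beside 4.61% of all genes) and 2 lower (beside 4.06%), and none passed the threshold in any of the 3 comparisons.

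Epha5, a receptor of A-type ephrins, was higher in the injured groups, at 4.76, 4.62 and 3.76 FPKM in Sham, 5.61, 5.3 and 5.47 in CPIP, compared with 6.02, 6.38 and 4.77 in CPIP+EA. The lowest CPIP+EA library of Epha5 lay just above the highest Sham library, and its log2 fold change was 0.29 in CPIP (adjusted p = 0.540) and 0.35 in CPIP+EA (adjusted p = 0.294) against Sham. Epha6, a receptor of the same type, was lower, at 2.03, 2.16 and 2.22 FPKM in Sham, 1.67, 1.39 and 1.52 in the CPIP group, and 1.5, 1.68 and 1.04 in CPIP+EA. Its log2 fold change was -0.38 in CPIP (adjusted p = 0.452) and -0.48 in CPIP+EA (adjusted p = 0.194) against Sham. Ephb2, a receptor of B-type ephrins that is known to regulate NMDA receptors, was at 1.71, 1.91 and 1.74 FPKM in Sham, 1.26, 1.48 and 1.42 in the CPIP and 1.2, 1.12 and 1.33 in the CPIP+EA libraries. Both injured groups of Ephb2 were below Sham, by a log2 fold change of -0.28 in CPIP (adjusted p = 0.469) and -0.41 in CPIP+EA (adjusted p = 0.128). At these low levels the pseudocount of 0.5 makes the printed log2 fold change smaller than that of the FPKM themselves.

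The Slits are secreted ligands of the Robos, and all 3 had a negative log2 fold change in CPIP+EA against CPIP and against Sham. Slit1 was the most abundant with a mean of 13.7 FPKM, ranging from 9.48 to 16.55 FPKM with overlapping groups. Slit2 was at 8.5, 8.86 and 8.53 FPKM in Sham, 9.67, 9.59 and 8.61 in CPIP, compared with 7.11, 7.11 and 8.54 in CPIP+EA. The CPIP+EA libraries of Slit2 were below the CPIP libraries, the closest pair nearly touching, with a log2 fold change of -0.28 (adjusted p = 0.996). Slit3 was at 2.95, 3.39 and 3.94 FPKM in Sham, 2.98, 3.01 and 2.91 in the CPIP group, and 2.62, 2.15 and 2.91 in CPIP+EA, with CPIP+EA below Sham by a log2 fold change of -0.36 (adjusted p = 0.298). Among the Robos, Robo2 was the main receptor with a mean of 19.4 FPKM, between 15.66 and 24.02 FPKM. Robo1 had a mean of 4.29 FPKM, between 3.62 and 4.78 FPKM, and Robo4, known from endothelium, had a mean of 0.759 FPKM, between 0.4 and 1.22 FPKM. None of the 4 Robos had an unadjusted p under 0.05 in any comparison, beside 4.29% to 12.2% of all genes, and the smallest adjusted p among them was 0.552.

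Among the members, Ntn1 and Ntn4 had the most negative log2 fold changes of CPIP+EA against Sham. Ntn1, a secreted cue that attracts or repels axons depending on the receptor, was at 8.22, 5.94 and 5.42 FPKM in Sham, 4.46, 7.16 and 5.37 in the CPIP and 3.11, 1.41 and 4.94 in the CPIP+EA libraries. All CPIP+EA libraries of Ntn1 were below all Sham libraries, and they overlapped with CPIP. The means were 6.53 ± 1.49 (SD, n = 3) in Sham, 5.66 ± 1.37 (SD, n = 3) in CPIP and 3.15 ± 1.77 (SD, n = 3) in CPIP+EA. Its log2 fold change was -1.05 in CPIP+EA against Sham (SE 0.34, adjusted p = 0.248) and -0.86 against CPIP (SE 0.34, adjusted p = 0.996), and when each library was left out in turn it ran from -1.40 to -0.64 against Sham and from -1.21 to -0.45 against CPIP, with the smallest differences without CPIP+EA replicate 2.

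Ntn4, a netrin of basement membranes, was at 9.42, 11.85 and 9.5 FPKM in Sham, 8.22, 9.48 and 7.95 in CPIP, compared with 4.47, 6.8 and 8.99 in CPIP+EA. Its CPIP+EA libraries were below Sham, by a log2 fold change of -0.61 (SE 0.21, adjusted p = 0.271), which was -0.36 without CPIP+EA replicate 1. Ntn3 had a mean of 2.85 FPKM, between 2.14 and 3.6 FPKM, with overlapping groups.

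Connective tissue markers varied beside the netrins. The 6 fibroblast markers, among them the collagens Col1a1 and Col3a1, summed to 1090, 1311 and 978 FPKM in Sham, 936, 1108 and 836 in the CPIP group, and 639, 555 and 1109 in CPIP+EA. The 3 netrins summed to 20.7, 20.34 and 18.52 FPKM in Sham, 15.58, 19.47 and 16.38 in the CPIP and 10.66, 10.63 and 16.07 in the CPIP+EA libraries, so that CPIP+EA replicates 1 and 2 were lowest in both sums. Within CPIP+EA, Ntn1 stood in the order of the fibroblast sum, and Ntn4 in that of the Schwann cell sum. Within CPIP, Ntn4 stood in the order of the fibroblast sum and Ntn1 did not, and within Sham neither did. In CPIP+EA against Sham, 5 of the 6 fibroblast markers were lower at an unadjusted p under 0.05, with a median log2 fold change of -0.60 over the 6 and 0 past the threshold. The part of the fibroblast and Schwann cell content in the netrin values was not tested.

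**Figure D3:**
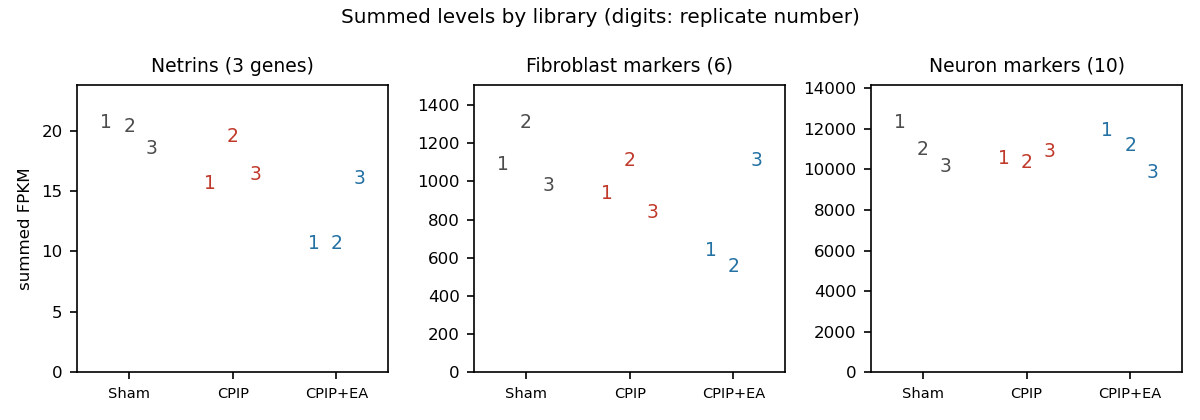
Summed FPKM of the 3 netrins and of the fibroblast and sensory neuron markers in each library, by group, with the digit giving the replicate number. CPIP+EA replicates 1 and 2 are lowest for the netrins (10.66 and 10.63 FPKM) and for the fibroblast markers (639 and 555 FPKM).

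The receptors of the netrins were low. Unc5b had a mean of 2.89 FPKM, between 2.19 and 3.42 FPKM, Unc5c of 1.83 FPKM, between 1.62 and 1.99 FPKM, and Unc5a of 1.69 FPKM, between 1.47 and 2.02 FPKM. Dcc, the receptor for attraction, was between 0.47 and 0.63 FPKM. None of the 5 netrin receptors had an unadjusted p under 0.05 in any comparison, again beside 4.29% to 12.2% of all genes, and the smallest adjusted p among them was 0.603.

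**Figure D4:**
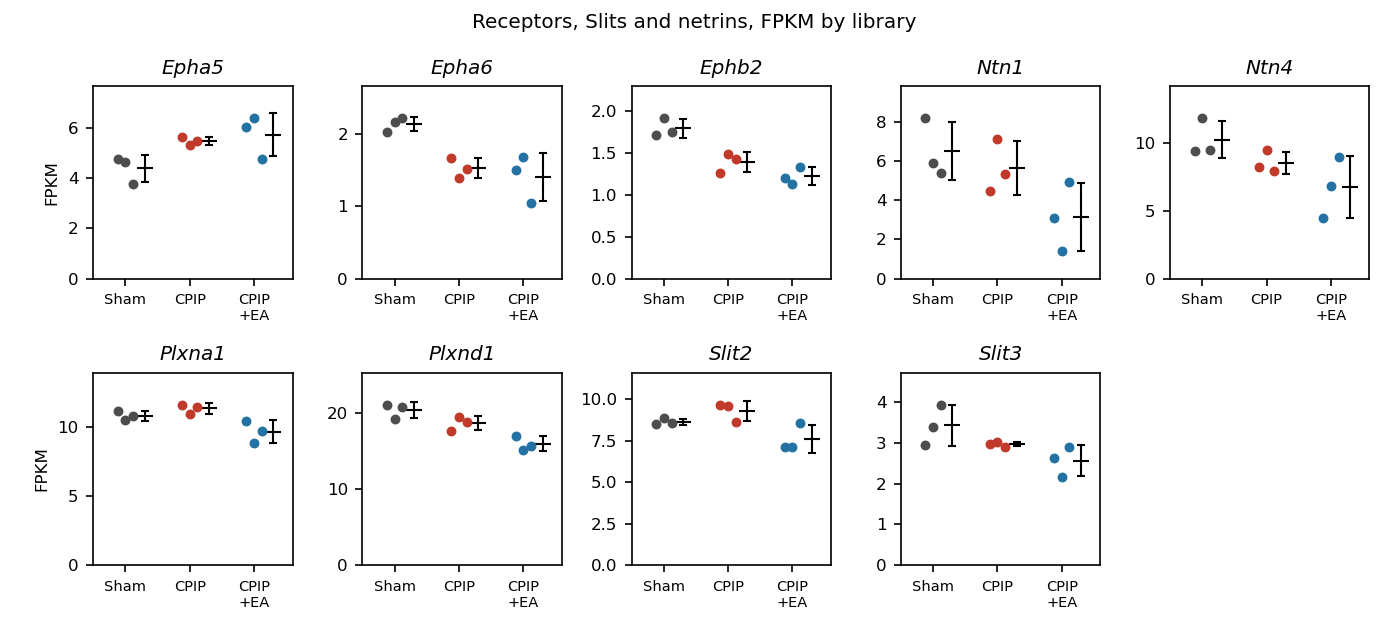
FPKM by group of the 9 members outside the semaphorins with an unadjusted p under 0.05 in any comparison. Points are libraries and bars are the mean ± SD of 3 libraries, and the CPIP+EA libraries of Ntn1 spread from 1.41 to 4.94 FPKM.

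Counted over the whole list, more members had a negative than a positive log2 fold change in each comparison. In CPIP against Sham, 5 members were higher at an unadjusted p under 0.05 (7.25% of the members, beside 4.61% of all genes) and 5 were lower (7.25%, beside 4.06%). In that comparison 7 members had groups that did not overlap with CPIP higher (10.1%, beside 7.98%) and 8 with CPIP lower (11.6%, beside 7.9%). A log2 fold change above 0 was found for 27 of the 69 members (39.1%, beside 47.9% of all genes), and the median of the members was -0.05, beside -0.01 over all genes.

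Against CPIP, the CPIP+EA group had 1 member, Sema4a, that was higher at an unadjusted p under 0.05 (1.45%, beside 2.22% of all genes) and 7 that were lower (10.1%, beside 2.07%). The groups did not overlap with CPIP+EA higher for 2 members (2.9%, beside 4.84%) and with CPIP+EA lower for 8 (11.6%, beside 3.4%). A log2 fold change above 0 was found for 18 members (26.1%, beside 54% of all genes), with a median of -0.08, beside 0.01. The 8 members at an unadjusted p under 0.05 in this comparison became 4 when CPIP replicate 1 was left out. They became 5 when replicate 2 of that group was dropped, and 4 when CPIP+EA replicate 2 was. The count over all genes, 738 with every library, fell in the same 3 fits, to 553, 504 and 520. It rose to 1176 on dropping CPIP+EA replicate 1, beside 9 members, and to 1243 on dropping replicate 3 of that group, beside 10 members. The 18 members with a log2 fold change above 0 became 28 on dropping CPIP replicate 3, and 27 on dropping CPIP+EA replicate 2.

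Against Sham, the CPIP+EA group had 5 members that were higher at an unadjusted p under 0.05 (7.25%, beside 6.59%) and 11 that were lower (15.9%, beside 5.63%). Non-overlapping groups with CPIP+EA higher were found for 5 members (7.25%, beside 8.87%) and with CPIP+EA lower for 12 (17.4%, beside 7.32%). A log2 fold change above 0 was found for 15 members (21.7%, beside 50.4%), with a median of -0.12, beside 0.00 over all genes. The shares of members are descriptions, since genes of a list are not independent replicates. Some cell type markers were lower beside them. Negative log2 fold changes of CPIP+EA against CPIP were found for 5 of 5 Schwann cell, 6 of 6 fibroblast and 5 of 5 pericyte and smooth muscle markers, with medians of -0.44, -0.37 and -0.11. Against Sham the same counts were found, with medians of -0.44, -0.60 and -0.22. In CPIP against Sham the log2 fold change was negative for 6 of 6 fibroblast (median -0.19), 5 of 5 pericyte and smooth muscle (median -0.12), 7 of 10 sensory neuron (median -0.16) and 1 of 5 Schwann cell markers (median 0.05). Neutrophil markers were positive for 5 of 5 genes in CPIP+EA against CPIP (median 0.67) and against Sham (median 0.65). In CPIP+EA against CPIP the median was 0.04 over the sensory neuron, 0.06 over the satellite glia, -0.01 over the endothelial and -0.05 over the macrophage markers, and in CPIP+EA against Sham it was -0.12, -0.03, 0.01 and -0.02, with 7 of the 10 sensory neuron markers negative. Skeletal muscle markers had a positive log2 fold change for 6 of 6 genes in CPIP against Sham (median 1.22) and in CPIP+EA against Sham (median 0.96), with sums from 6.87 FPKM to 114 FPKM in CPIP replicate 2. Erythroid markers were negative for 5 of 5 in CPIP against Sham (median -0.69) and positive for 5 of 5 in CPIP+EA against CPIP (median 0.60), and spinal cord glia markers were positive for 4 of 5 in CPIP+EA against CPIP (median 0.33) and against Sham (median 0.41). No marker of these lists passed the threshold. The part of these cell types in the members' lower values was not tested.

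**Figure D5:**
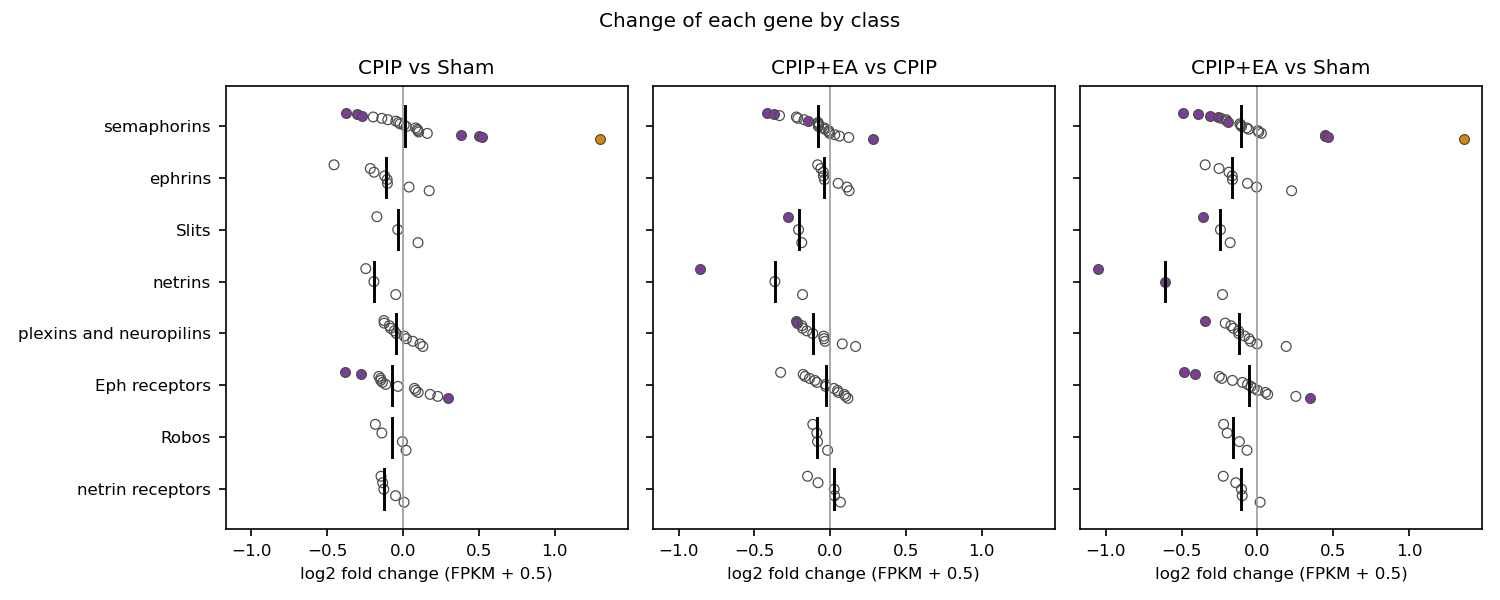
Log2 fold change of each member by class in the 3 comparisons, with a bar at the class median. Orange marks members past the threshold, which is Sema6a in both comparisons with Sham, and purple marks an unadjusted p under 0.05.

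Other genes of the guidance pathway were taken from 3 further lists. These lists were chosen with earlier results of these data known, so their shares beside those of all genes are descriptions only. Of 32 other guidance cues and receptors, 31 were tested and 1 passed the threshold, Flrt3, a membrane protein that binds Unc5 and Robo receptors and latrophilins. Its FPKM was 7.49, 6.12 and 6.52 in Sham, 20.23, 19.83 and 25.51 in CPIP, compared with 28.37, 25.67 and 20.95 in CPIP+EA. Every Flrt3 library of an injured rat was above every Sham library, with a log2 fold change of 1.63 in CPIP (SE 0.13, adjusted p = 0.000679) and 1.82 in CPIP+EA (SE 0.13, adjusted p = 0.000289) against Sham, and 0.19 between CPIP+EA and CPIP (adjusted p = 0.996). At an unadjusted p under 0.05, 4 of the 31 were higher (12.9%, beside 4.61% of all genes) and 3 lower (9.68%, beside 4.06%) in CPIP against Sham. Between CPIP+EA and CPIP these were 0 (beside 2.22%) and 1 (3.23%, beside 2.07%), and between CPIP+EA and Sham 4 (12.9%, beside 6.59%) and 4 (12.9%, beside 5.63%). The 1 was Rgma, a repulsive ligand of neogenin, with a log2 fold change of -0.32 (adjusted p = 0.996), and Ntng2, a netrin G, followed with -0.17.

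Of 25 adhesion molecules that serve as co-receptors, none passed the threshold. Cntn4, a contactin of axonal surfaces, was at 6.6, 5.62 and 5.27 FPKM in Sham, 3.3, 3.32 and 3.43 in the CPIP group, and 4.16, 4.22 and 3.53 in CPIP+EA. All injured libraries of Cntn4 were below Sham, with a log2 fold change of -0.71 in CPIP (SE 0.11, adjusted p = 0.0200). Chl1, a relative of L1 that promotes neurite growth, had a log2 fold change of 0.61 in CPIP (adjusted p = 0.0528) and 0.70 in CPIP+EA (adjusted p = 0.0180) against Sham, and the integrin Itgb1 of 0.45 in CPIP+EA against Sham (adjusted p = 0.0230). At an unadjusted p under 0.05 the list held 3 genes higher (12.0%, beside 4.61% of all genes) and 3 lower (12.0%, beside 4.06%) in CPIP against Sham. For CPIP+EA against CPIP the counts were 0 (beside 2.22%) and 1 (4.0%, beside 2.07%), and for CPIP+EA against Sham 3 (12.0%, beside 6.59%) and 7 (28.0%, beside 5.63%). In CPIP+EA against CPIP, the phosphatase receptor Ptprf had a log2 fold change of -0.16 and Cntn4 of 0.21.

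Of 55 signal transducers downstream of the receptors, none passed the threshold either. Rnd1, a small GTPase that binds plexins, had a log2 fold change of 0.44 in CPIP (adjusted p = 0.317) and 0.57 in CPIP+EA (adjusted p = 0.0993) against Sham. Next to it by p-value, Rasa1, a Ras GTPase-activating protein, had -0.14 in CPIP against Sham, and the kinase Limk2 0.27 in CPIP+EA against Sham. Between CPIP+EA and CPIP, the smallest p-values were those of the kinase Abl1, at a log2 fold change of -0.16, and the exchange factor Vav3, at 0.16. In CPIP against Sham, 4 were higher (7.27%, beside 4.61% of all genes) and 4 lower (7.27%, beside 4.06%) at an unadjusted p under 0.05. With CPIP+EA the counts were 0 (beside 2.22%) and 0 (beside 2.07%) against CPIP, and 3 (5.45%, beside 6.59%) and 4 (7.27%, beside 5.63%) against Sham.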

How the data were processed

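Poly(A) RNA-Seq libraries of 3 Sham, 3 CPIP and 3 CPIP+EA rats were analysed, grouped by their labels. Per the study's methods and notes, single-end BGISEQ-500 reads were filtered with SOAPnuke, and the authors deposited FPKM per gene and library with 2 decimals. The aligner, quantifier, genome build and annotation are not given in the sources used here. The authors' own log2 ratios between groups stand in the same table with P-values and with Q-values, and these were not used. The study states a similar depth for the 9 libraries, but read counts per gene were not used here, so the counting error of a value is not known, low values are less certain, and precision is limited by having 3 libraries in a group.

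The test was limma 3.58.1 (R 4.3.3, eBayes with trend, two-sided, no covariate) on log2(FPKM + 0.5), for genes with a mean of at least 0.1 FPKM. A log2 fold change is on this scale and understates the change of low genes. Tables and figures used Python 3.11.15, pandas 2.3.3, numpy 2.4.6 and matplotlib 3.10.9. The genes named were the members with an unadjusted p under 0.05 in any comparison, the 3 most abundant of each class, those next to the filter, and in the pathway lists the genes past the threshold or with the smallest p-values. Sema3a, Sema4c, Sema5a, Efna2, Plxna4, Nrp2 and Dcc were named after their values were seen. 1 cell type marker is not reported here. The members and lists were chosen with earlier results of these data known. Simulated data of 17187 genes had independent normal noise for each gene. Some genes with a mean of at least 1 FPKM were raised in CPIP and CPIP+EA alike. The fit called 74 of 100 genes raised 2-fold and 94 of 100 raised 4-fold in CPIP against Sham, and 4 unchanged genes. No change was simulated between CPIP+EA and CPIP or in genes under 1 FPKM, so recovery there is not known. Alternatives covered the pseudocount, filter, normalization, variance model, replicate block, libraries and threshold.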

Additional observations from a re-analysis of the deposited data

How the results depend on the processing

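Leaving out each library in turn gave 0 to 1 members past the threshold in CPIP against Sham, 0 to 0 in CPIP+EA against CPIP and 1 to 1 in CPIP+EA against Sham. Members at an unadjusted p under 0.05 numbered 7 to 10, 4 to 10 and 12 to 22, beside 1124 to 1799, 504 to 1243 and 1665 to 2374 of all genes. The median log2 fold change of the members ran from -0.08 to -0.03, from -0.10 to -0.04 and from -0.15 to -0.11. In CPIP against Sham, Sema6a had an adjusted p of 0.0117 without Sham replicate 2 (log2 fold change 1.29) and of 0.0122 without CPIP replicate 3 (1.26). With only the 2 groups compared in the fit, 0 members passed in CPIP+EA against Sham, where Sema6a had an adjusted p of 0.0106 (log2 fold change 1.36). Its log2 fold change in CPIP+EA against CPIP, 0.06 with all libraries, ran from -0.046 without CPIP+EA replicate 1 to 0.16 without CPIP+EA replicate 3. With fewer libraries in these fits, the spread is estimated from fewer samples.

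With the replicate number as a block, 5 members (8 without it) were at an unadjusted p under 0.05 in CPIP+EA against CPIP. Of all genes, 696 (738 without it) were. The genes past the threshold among all genes numbered 26 (61 without it) in CPIP against Sham and 42 (83 without it) in CPIP+EA against Sham. The numbers did not pair the libraries. Deviations from the group means correlated between -0.24 and 0.30 over 9 pairs of the same number, and 2 of 9 libraries correlated best with their own number. The remaining alternatives kept the direction and side of the threshold of Sema6a in both comparisons with Sham.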
